A study of Mus musculus with 26 samples.

Results

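Pdgfra, Pth1r, Lrp2, Cubn, Amn, Dab2 and Srgn were followed across 26 single inner cell masses (ICMs), the inner cells of the mouse blastocyst. They encode surface receptors, an endocytic receptor complex with its adaptor, and a proteoglycan, all linked to primitive endoderm. The 7 genes were picked by symbol from a table of 55254 gene symbols, and all 7 were found. Each also passed the expression filter, which asked for 5 or more libraries with a TPM of at least 1. TPM divides a gene's reads by its transcript length and scales each library to the same total, so levels of different genes can be compared.

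The embryos were of the CD-1 strain, came from 5 litters that were mixed, and were taken as morulae, before a blastocyst forms. All embryos were listed at the same embryonic day at the start of culture, about day 2.8 when rounded, whatever their condition. They were cultured in KSOM medium for 24 hours with the vehicle DMSO (5 ICMs), with 10 µM LY294002, an inhibitor of PI3K (LY, 7 ICMs), with 1 µg/ml FGF4 and heparin (FGF4, 8 ICMs), or with LY and FGF4/heparin together (LY+FGF4, 6 ICMs). The zona pellucida was removed and the ICMs were isolated by immunosurgery, which lyses the outer cells. Each ICM gave 1 full-length FLASH-seq library and is a separate embryo whose litter is not known.

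An ICM holds precursors of epiblast and of primitive endoderm, the extraembryonic layer that goes on to line the yolk sac. FGF4 made by epiblast cells acts on their neighbours through ERK and drives them to primitive endoderm. Cells of this lineage display the receptor PDGFRA and later take up maternal protein, lipid and vitamins through megalin (Lrp2), cubilin (Cubn) and amnionless (Amn), helped by the clathrin adaptor DAB2. A whole ICM was sequenced, so fewer primitive endoderm cells and less RNA per cell cannot be told apart in any of the values.

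Libraries listed 7486 to 11367 genes at a TPM of at least 1, and the 6 with fewer than 9000 were FGF4 replicates 2 and 3 and LY+FGF4 replicates 2, 3, 5 and 8. LY+FGF4 had the lowest median, 8650.5 genes, against 10692 in DMSO, 10089 in LY and 10504.5 in FGF4. Primitive endoderm transcription factors were present in every condition (Gata6 averaged 253 ± 46.4 TPM in DMSO, SD, n = 5), with 5 to 7 of 7 listed above 0 per group. Trophectoderm markers, of cells that immunosurgery removes, were also present: all 15 were above 0 in some DMSO and some LY library, 14 in FGF4 and 11 in LY+FGF4, where Elf5, Gata2, Id2 and Hand1 were at 0. The 12 that were tested summed to 1381 to 2609 TPM in DMSO, 1924 to 2847 with LY, 595 to 1905 with FGF4 and 782 to 2498 in LY+FGF4, and a fit with their score as a covariate is given where it ended a call. By limma 5 of 9 tested epiblast markers fell with FGF4 against DMSO, and 5 and 6 of 9 in LY+FGF4 against LY and DMSO. Of 6 tested oocyte-derived genes, 1, 1 and 2 fell in those comparisons. Of all genes tested, 1.46%, 4.50% and 7.30% fell in the same comparisons.

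The promoters of the 7 genes, 250 bases before to 50 bases after an annotated start, were read from RefSeq on GRCm38.p6, which gives 11 such windows for them. They are shown because transcription factors of primitive endoderm of the GATA and SOX families, and FOXO factors downstream of PI3K, bind short known motifs. GATAA, the core bound by factors of the GATA family, was found on either strand in 2 of the 11 windows (Dab2 and Pth1r) against 25.4% of 32851 windows of all genes. ACAAT, the core bound by SOX factors, was found on either strand in 1 (Srgn) against 31.0%, and GTAAACA, a FOXO motif searched on both strands, in none against 3.65%. Windows with a match follow, with the motif or its reverse complement in capitals, and then those of Pdgfra, Cubn and Lrp2, whose transcripts gave calls and whose windows hold no match. A match is a stretch of letters, not a shown binding site.
Dab2, chr15:6299539-6299838, plus strand: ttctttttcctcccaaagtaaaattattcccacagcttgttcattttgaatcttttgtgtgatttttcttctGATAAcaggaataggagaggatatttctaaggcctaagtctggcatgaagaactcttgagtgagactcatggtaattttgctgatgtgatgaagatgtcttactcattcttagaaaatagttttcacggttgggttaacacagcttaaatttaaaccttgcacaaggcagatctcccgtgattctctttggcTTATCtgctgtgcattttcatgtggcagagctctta
Pth1r, chr9:110743637-110743936, minus strand: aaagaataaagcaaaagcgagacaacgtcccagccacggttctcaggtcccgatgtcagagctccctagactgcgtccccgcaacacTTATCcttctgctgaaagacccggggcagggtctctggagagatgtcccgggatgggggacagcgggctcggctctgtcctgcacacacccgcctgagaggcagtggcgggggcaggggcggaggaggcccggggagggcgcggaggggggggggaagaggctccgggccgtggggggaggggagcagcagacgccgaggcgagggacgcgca
Srgn, chr10:62527396-62527695, minus strand: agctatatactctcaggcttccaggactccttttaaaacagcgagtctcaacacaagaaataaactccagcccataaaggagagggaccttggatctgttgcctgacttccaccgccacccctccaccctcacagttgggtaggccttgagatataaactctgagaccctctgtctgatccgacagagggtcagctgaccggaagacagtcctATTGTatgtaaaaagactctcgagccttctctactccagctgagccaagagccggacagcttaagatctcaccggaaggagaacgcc
Pdgfra, chr5:75152001-75152300, plus strand: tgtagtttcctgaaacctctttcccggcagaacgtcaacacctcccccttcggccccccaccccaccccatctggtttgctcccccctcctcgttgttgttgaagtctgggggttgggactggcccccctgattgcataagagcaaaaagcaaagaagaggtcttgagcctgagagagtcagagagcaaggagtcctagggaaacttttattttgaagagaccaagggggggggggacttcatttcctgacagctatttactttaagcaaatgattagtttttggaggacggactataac
Cubn, chr2:13491827-13492126, minus strand: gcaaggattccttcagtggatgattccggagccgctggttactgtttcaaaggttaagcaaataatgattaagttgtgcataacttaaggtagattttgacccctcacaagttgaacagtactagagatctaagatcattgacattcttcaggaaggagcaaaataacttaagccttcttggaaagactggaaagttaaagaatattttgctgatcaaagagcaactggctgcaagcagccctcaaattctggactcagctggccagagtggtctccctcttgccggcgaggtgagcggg
Lrp2, chr2:69585980-69586279, minus strand: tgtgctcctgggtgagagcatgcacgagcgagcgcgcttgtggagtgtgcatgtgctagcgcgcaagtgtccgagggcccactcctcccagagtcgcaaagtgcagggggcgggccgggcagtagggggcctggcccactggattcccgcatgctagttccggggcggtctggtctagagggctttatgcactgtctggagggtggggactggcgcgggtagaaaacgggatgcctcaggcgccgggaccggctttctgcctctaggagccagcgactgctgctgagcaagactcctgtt

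Differences were tested with limma on log2(TPM + 1) over 12034 genes and all 26 libraries, with Benjamini-Hochberg adjustment at 0.05. Across the members 1 of 7 fell with LY against DMSO, where 0.299% of all genes tested fell and 0.0748% rose. None of 7 passed with FGF4 against DMSO (2 at an unadjusted p under 0.05), where 0.981% of all genes rose and 1.46% fell. With LY+FGF4 against FGF4, 2 of 7 fell, where 2.83% of all genes fell and 0.723% rose. With LY+FGF4 against LY, 2 of 7 rose, Srgn being at 0 in both groups, where 1.79% of all genes rose and 4.50% fell. With LY+FGF4 against DMSO, 2 of 7 rose, where 2.19% of all genes rose and 7.30% fell. Median log2 fold changes of the 7 were -0.90 with LY and 0.88 with FGF4 against DMSO, beside -0.10 for all genes in each. LY and FGF4 were both compared with the same DMSO libraries. The interaction, the change due to LY when FGF4 was present less that when it was not, was called for 0 of 7 members by limma (1 at an unadjusted p under 0.05) and for 0.0499% of all genes.

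**Figure D1:**
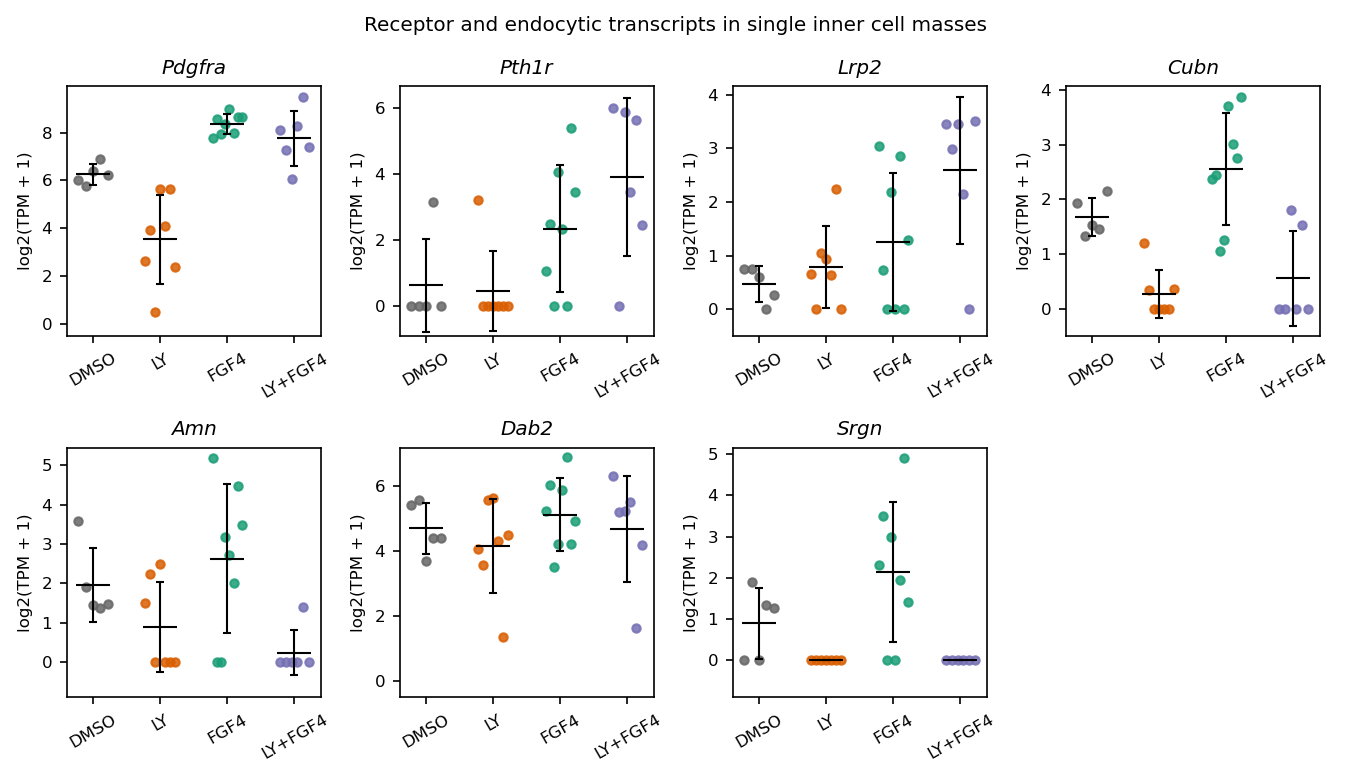
Level of each gene as log2(TPM + 1) on the vertical axis, with 1 point per ICM, by condition on the horizontal axis; horizontal bars are means and whiskers 1 SD (n = 5, 7, 8 and 6). Pdgfra had its highest mean with FGF4 and its lowest with LY, Cubn and Amn were near 0 in most libraries with LY in either form, and Srgn was at 0 in all 13 of them, while Lrp2 and Pth1r had their highest means in LY+FGF4.

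Pdgfra encodes the alpha receptor of platelet-derived growth factors, a tyrosine kinase that marks primitive endoderm cells and recruits PI3K when active. It had the highest mean of the 7 genes with DMSO, FGF4 and LY+FGF4, lay below DMSO with LY alone and above it with FGF4 alone. DMSO libraries held 64.4, 52.8, 82.8, 118 and 73.1 TPM. LY libraries ranged from 0.40 to 49.1 TPM with a median of 14.3, so that every LY library lay below every DMSO library. FGF4 libraries ranged from 216 to 507 TPM with a median of 352, and every one lay above every DMSO library. LY+FGF4 libraries ranged from 66.1 to 721 TPM with a median of 222, which spans the whole FGF4 range and reaches down into the DMSO range. Ranges that do not overlap in the same direction were found for 1.54% of all genes for LY below DMSO and for 1.13% for FGF4 above DMSO.

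Pdgfra fell with LY (log2 fold change -2.71, SE 0.62, adjusted p = 0.0455), from 78.3 ± 25.01 TPM (SD, n = 5) to 19.7 ± 20.8 (n = 7). That call was lost in 7 of 13 other settings, and it held in 2 of 12 runs that left out 1 library, those without LY replicate 5 or 7, and adjusted p reached 0.129. The rise with FGF4, to 341 ± 99.6 TPM (n = 8), did not pass (2.11, SE 0.61, adjusted p = 0.0570). It passed in 3 of 13 other settings and in none of the 13 runs that left out 1 library. The 3 were a pseudocount of 5 (adjusted p = 0.0157), library weights (0.00733) and only the 2 groups compared (0.000333). With the trophectoderm score as a covariate the rise was 1.67 (adjusted p = 0.408). LY+FGF4 averaged 282 ± 232 TPM (n = 6) and rose against LY by 4.23 (SE 0.59, adjusted p = 9.74e-05). Each of the 6 lay above each of the 7 LY libraries, which holds for 0.623% of all genes, and this call held in all 13 other settings and all 13 runs without 1 library. Between LY+FGF4 and FGF4 the difference was -0.59 (95% interval -1.77 to 0.58, adjusted p = 0.620), and the interaction was 2.12 (95% interval 0.39 to 3.85, adjusted p = 0.696). The order of means was FGF4, LY+FGF4, DMSO and LY. Neither the first pair of neighbours nor LY+FGF4 against DMSO (1.52, 95% interval 0.20 to 2.83, adjusted p = 0.137) differed past the threshold.

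Pdgfra lies on chromosome 5 (75152292 to 75198215, plus strand, GRCm38). Of its 10024 annotated exon bases, 456 and 166 are shared with exons of the predicted genes Gm42802 and Gm42803 on the other strand and 30 with the microRNA gene Mir7025 on its own. How strands were counted is not known, so reads on such shared bases cannot be assigned, here or in the genes that follow. Sox17, a transcription factor of endoderm, fell with LY (adjusted p = 0.000884) and rose with FGF4 (adjusted p = 0.0361), from 151 ± 125 TPM with DMSO to 5.35 ± 8.09 and 667 ± 179 TPM. Like Pdgfra it rose in LY+FGF4 (492.5 ± 253 TPM) against LY (adjusted p = 3.24e-07). Of the 6 tested transcription factors of primitive endoderm, 1 fell with LY against DMSO (Sox17), 2 rose with FGF4 against DMSO (Sox17 and Gata4) and 3 rose in LY+FGF4 against LY (with Gata6). Of all genes tested, 0.299% fell in the first comparison, and 0.981% and 1.79% rose in the others. Hnf4a fell in LY+FGF4 (13.2 ± 32.3 TPM, 5 of 6 at 0) against DMSO (77.6 ± 21.7 TPM), with a difference of -5.20 (adjusted p = 0.0105). With LY alone it averaged 19.2 ± 16.6 TPM (2 of 7 at 0), below DMSO like Sox17. With FGF4 alone it averaged 34.5 ± 31.5 TPM (adjusted p = 0.349 against DMSO), below DMSO where Sox17 lay above.

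Pth1r encodes the receptor of parathyroid hormone and its related peptide, which couples to G proteins and cAMP and is known from endoderm that turns parietal. It was scarce without FGF4 and present in most libraries with it. Of 5 DMSO libraries only replicate 8 had any, at 7.91 TPM, and of 7 LY libraries only replicate 2, at 8.20 TPM. FGF4 libraries ranged from 0 to 40.5 TPM with a median of 4.30, and 6 of 8 were above 0. LY+FGF4 libraries ranged from 0 to 62.6 TPM with a median of 29.4, and 5 of 6 were above 0. LY+FGF4 replicates 2, 5 and 7 and FGF4 replicate 7 stood highest, and all 4 groups overlapped.

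Pth1r rose in LY+FGF4 (30.5 ± 28.6 TPM, n = 6) against LY (1.17 ± 3.10 TPM, n = 7) by 3.44 (SE 0.95, adjusted p = 0.0288) and against DMSO (1.58 ± 3.54 TPM, n = 5) by 3.27 (SE 1.04, adjusted p = 0.0437). The first call was lost without LY replicate 4 or LY+FGF4 replicate 2, 5 or 7, and the second held in 3 of 11 such runs, those without DMSO replicate 8 or LY+FGF4 replicate 3 or 8. Other settings ended the first call in 4 of 13 and the second in 9 of 13, both of them with the trophectoderm score as a covariate, where the difference was 2.57 against LY (adjusted p = 0.108) and 1.67 against DMSO (adjusted p = 0.418). FGF4 alone gave 9.44 ± 13.6 TPM (n = 8) and did not differ from DMSO past the threshold (1.71, 95% interval -0.29 to 3.71, adjusted p = 0.415), nor did LY+FGF4 from FGF4 (1.56, 95% interval -0.33 to 3.45, adjusted p = 0.373). Pth1r, on chromosome 9 (110722085 to 110747145, minus strand), shares 95 of its 2925 exon bases with Myl3 on the other strand.

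Lrp2 encodes megalin, a giant endocytic receptor that takes up lipoproteins, vitamin carriers and many other proteins. Its level was low everywhere and highest with LY and FGF4 together. DMSO libraries held 0.69, 0.69, 0.52, 0 and 0.20 TPM. LY libraries ranged from 0 to 3.74 TPM with a median of 0.57, and FGF4 libraries from 0 to 7.19 TPM with a median of 1.04. LY+FGF4 libraries ranged from 0 to 10.4 TPM with a median of 8.42. In that group 5 of 6 libraries, all but replicate 7, were above every DMSO library, and 3 of 8 FGF4 libraries were at 0.

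Lrp2 rose in LY+FGF4 (6.76 ± 4.24 TPM, n = 6) against DMSO (0.42 ± 0.31 TPM, n = 5) by 2.11 (SE 0.66, adjusted p = 0.0419). The call held in 2 of 11 runs without 1 library, those without LY+FGF4 replicate 6 or 7, and in 5 of 13 other settings. Without the 6 libraries under 9000 genes, which leaves replicates 6 and 7 of LY+FGF4, the difference was 0.60 (adjusted p = 0.717). Against LY (0.98 ± 1.28 TPM, n = 7) it was 1.80 (95% interval 0.55 to 3.05, adjusted p = 0.0752) and against FGF4 (2.38 ± 2.93 TPM, n = 8) 1.33 (95% interval 0.12 to 2.54, adjusted p = 0.219). Neighbours in the order of means, from LY+FGF4 through FGF4 and LY to DMSO, did not differ past the threshold, FGF4 against LY not being tested. Lrp2 lies on chromosome 2 (69424340 to 69586065, minus strand), and no other gene overlaps it.

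Cubn encodes cubilin, a peripheral receptor for intrinsic factor with vitamin B12, albumin and apolipoprotein A-I that relies on megalin and amnionless for uptake. Its level was low in both groups that had LY. DMSO libraries held 2.84, 1.52, 1.90, 1.73 and 3.44 TPM. LY libraries ranged from 0 to 1.31 TPM with a median of 0, with 4 of 7 at 0, and every one lay below every DMSO library. Ranges apart in that direction were found for 1.54% of all genes. FGF4 libraries ranged from 1.07 to 13.6 TPM with a median of 5.11 and none at 0. LY+FGF4 libraries were at 0 in replicates 2, 3, 6 and 8, at 2.49 TPM in replicate 5 and at 1.88 TPM in replicate 7, within the lower part of the FGF4 range.

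Cubn fell in LY+FGF4 (0.73 ± 1.14 TPM, n = 6) against FGF4 (6.20 ± 4.58 TPM, n = 8) by 2.01 on the log2 scale (SE 0.48, adjusted p = 0.0170), a call that held in all 14 runs without 1 library. It was lost in 4 of 12 other settings, among them without the 6 libraries under 9000 genes (-2.07, adjusted p = 0.134) and when the count of listed genes entered the model (-1.23, adjusted p = 0.314). LY alone (0.26 ± 0.48 TPM, n = 7) against DMSO (2.29 ± 0.82 TPM, n = 5) gave -1.41 (95% interval -2.47 to -0.35, adjusted p = 0.330), which did not pass although the ranges did not overlap. The LY effect did not differ by the presence of FGF4 past the threshold (interaction -0.59, 95% interval -2.03 to 0.84, adjusted p = 0.948). FGF4 against DMSO gave 0.88 (95% interval -0.15 to 1.91, adjusted p = 0.417). Cubn lies on chromosome 2 (13276338 to 13491813, minus strand) and shares 368 of its 14935 exon bases with the predicted gene Gm13270 on the other strand.

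Amn encodes amnionless, the membrane anchor that carries cubilin to the cell surface. DMSO replicate 3 held 10.97 TPM, replicates 7, 8 and 9 held 1.73, 1.58 and 1.79 TPM, and replicate 6 lay between them at about 2.02 reads by the estimate given further on. LY libraries ranged from 0 to 4.63 TPM with a median of 0, with 4 of 7 at 0. FGF4 libraries ranged from 0 to 35.3 TPM with a median of 6.83, with replicates 2 and 3 at 0. LY+FGF4 libraries were at 0 in 5 of 6, and replicate 7 held 1.65 TPM. The groups overlapped in every comparison.

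Amn did not pass in LY+FGF4 (0.28 ± 0.67 TPM, n = 6) against FGF4 (10.4 ± 12.2 TPM, n = 8), with a difference of -2.40 (95% interval -3.84 to -0.95, adjusted p = 0.0540). It passed in 3 of 14 runs without 1 library, those without FGF4 replicate 2 or 3 or LY+FGF4 replicate 7, the lowest adjusted p being 0.0189, and with the trophectoderm score as a covariate (adjusted p = 0.0491). With the count of listed genes as covariate the difference was -0.61 (adjusted p = 0.770). LY (1.46 ± 2.00 TPM, n = 7) against DMSO (3.76 ± 4.05 TPM, n = 5) gave -1.06 (95% interval -2.63 to 0.50, adjusted p = 0.824). Amn lies on chromosome 12 (111271095 to 111276426, plus strand), and no other gene overlaps it.

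Set side by side, the receptors of 1 uptake complex did not keep a fixed ratio. Lrp2 was above Cubn in 5 of 6 LY+FGF4 libraries, against 0 of 5 with DMSO, 4 of 7 with LY and 2 of 8 with FGF4. Cubn and Amn were both at 0 in 4 of 6 LY+FGF4 and 3 of 7 LY libraries and in none with DMSO or FGF4. All of Lrp2, Cubn and Amn were above 0 in 4 DMSO, 1 LY, 4 FGF4 and 0 LY+FGF4 libraries. In LY+FGF4 the 1 library without Lrp2, replicate 7, was the only one with Amn. This comparison was chosen after the values were seen and has no test.

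**Figure D2:**
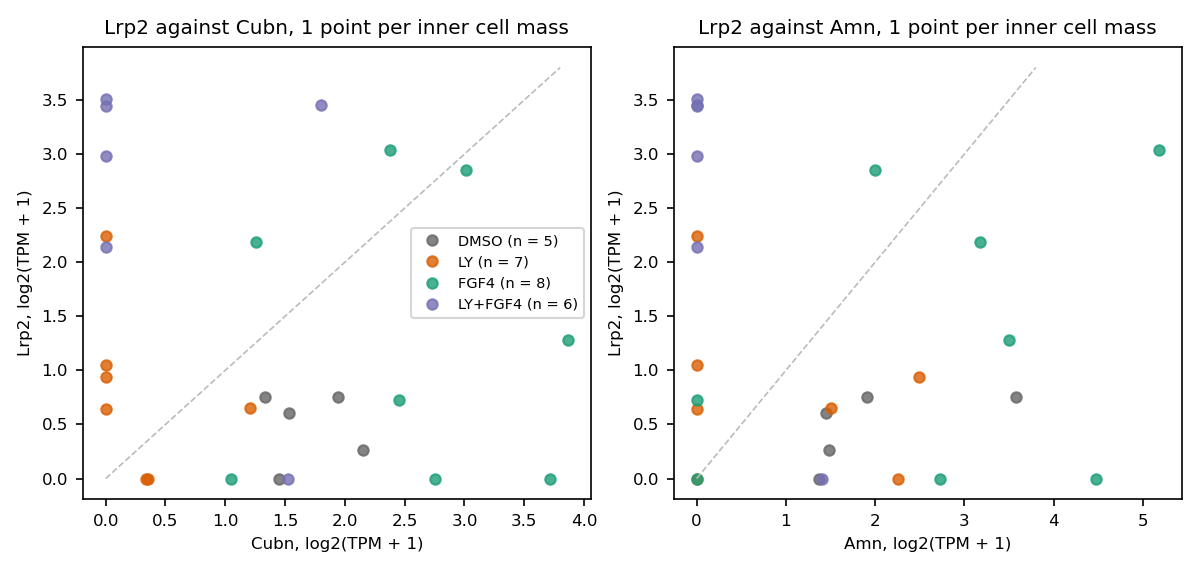
Lrp2 on the vertical axes against Cubn (left) and Amn (right) on the horizontal axes, all as log2(TPM + 1), with 1 point per ICM coloured by condition; the dashed line marks equal levels. Most LY+FGF4 libraries sit along the left edge, with Lrp2 up to 10.4 TPM and Cubn at 0 in 4 of 6, while DMSO libraries sit low on the Lrp2 axis with Cubn above 0 in all 5.

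Dab2 encodes the adaptor that links the tails of megalin and its relatives to clathrin and is itself a marker of primitive endoderm. It was above 0 in all 26 libraries and no comparison passed. DMSO libraries held 41.7, 46.9, 11.9, 20.4 and 20.04 TPM. LY libraries ranged from 1.55 to 48.6 TPM with a median of 19.1, FGF4 libraries from 10.5 to 119 TPM with a median of 33.0, and LY+FGF4 libraries from 2.14 to 78.6 TPM with a median of 36.4. The 2 lowest values were in replicate 7 of LY and replicate 7 of LY+FGF4, and all 4 groups overlapped.

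Mean Dab2 was 28.2 ± 15.2 TPM (SD, n = 5) with DMSO, 23.5 ± 17.7 with LY (n = 7), 44.2 ± 36.0 with FGF4 (n = 8) and 35.9 ± 26.0 with both (n = 6). LY against DMSO gave -0.55 (95% interval -2.04 to 0.93, adjusted p = 0.942) and FGF4 against DMSO 0.42 (95% interval -1.03 to 1.87, adjusted p = 0.838). LY+FGF4 against FGF4 gave -0.43 (95% interval -1.80 to 0.94, adjusted p = 0.780). The first of these intervals reaches -2.04, so Dab2 is not shown to be steady. Dab2 lies on chromosome 15 (6299788 to 6440712, plus strand) and shares 211 of its 7342 exon bases with the predicted gene Gm18888 on the other strand and 0 with Gm16311, which lies within its span.

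Srgn encodes serglycin, a proteoglycan of secretory granules that carries many glycosaminoglycan chains. It was listed at 0 in every library that had LY. DMSO libraries held 0, 2.71, 0, 1.55 and 1.42 TPM. FGF4 libraries ranged from 0 to 29.2 TPM with a median of 3.43, with 6 of 8 above 0 and replicates 3 and 5 at 0. All 7 LY and all 6 LY+FGF4 libraries were listed at 0.

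For Srgn no fold is given where a group is at 0. The difference between LY+FGF4 and FGF4 passed by limma (adjusted p = 0.0292), with 6.88 ± 9.68 TPM (n = 8) in FGF4. Only 6 FGF4 and 3 DMSO libraries had Srgn at a TPM of at least 1. It thus met the expression filter only through the group it was then found high in, which limits the call. The call was lost without FGF4 replicate 7 (adjusted p = 0.0519) or LY+FGF4 replicate 2 (adjusted p = 0.0512) and in 6 of 12 other settings. LY against DMSO (1.14 ± 1.15 TPM, n = 5) did not pass (adjusted p = 0.786), nor did FGF4 against DMSO (1.24, 95% interval 0.03 to 2.44, adjusted p = 0.305). Srgn lies on chromosome 10 (62493833 to 62527451, minus strand), and no other gene overlaps it.

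**Figure D3:**
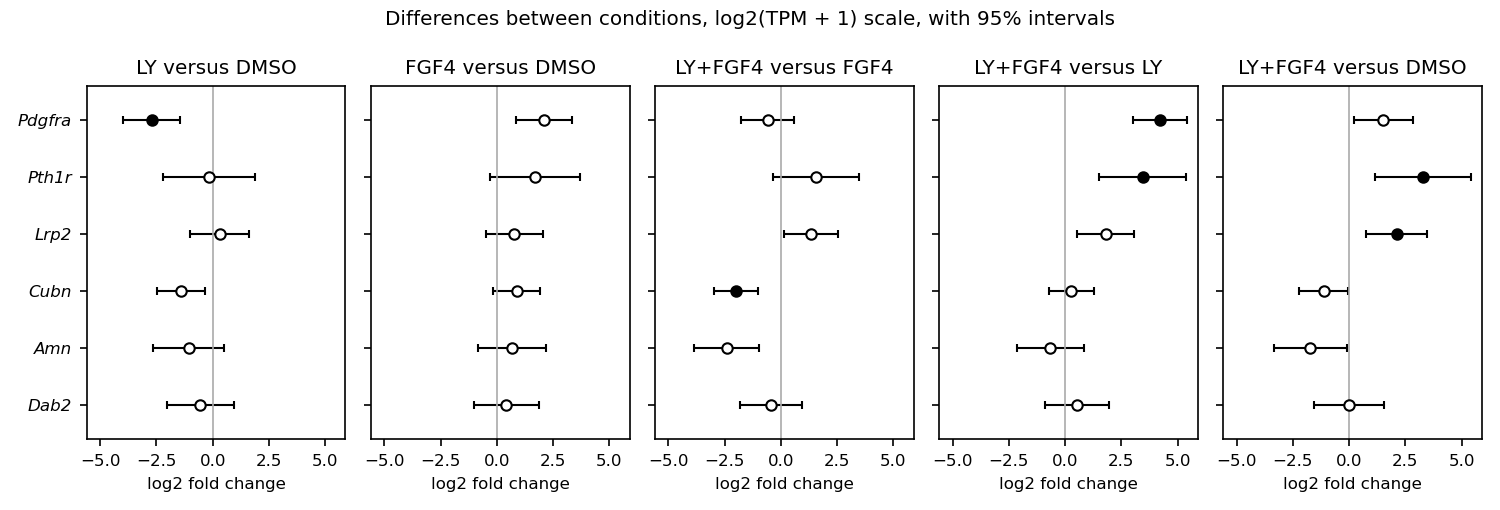
Log2 fold change on the log2(TPM + 1) scale (horizontal axis) of 6 genes in 5 comparisons, with 95% intervals from limma; filled points have an adjusted p under 0.05. Srgn is left out because it was at 0 in every LY and LY+FGF4 library. Pdgfra in LY+FGF4 against LY, at 4.23, lies farthest from 0.

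Low TPM values rest on few reads. From the spacing of TPM values of genes with 1 annotated transcript, the worth of 1 read was estimated in each library, with an assumed fragment length. On the longest annotated transcript, 1 read was worth 0.0499 to 0.261 TPM for Lrp2 (15460 bases) and 0.0687 to 0.359 TPM for Cubn (11262 bases). For the short transcripts of Amn (1701 bases) and Srgn (1727 bases) it was worth 0.483 to 2.52 and 0.475 to 2.48 TPM. Of 52 values of the 7 genes that came to fewer than 10 reads, 44 lay within 0.15 of a whole number.

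Read this way, the 1.65 TPM of Amn in LY+FGF4 replicate 7 was 1 read, and the 3 DMSO libraries with Srgn held 1.01 to 2.99 reads each. At the DMSO mean of Srgn, LY libraries would hold 0.46 to 0.85 reads each and 4.32 in all 7 together, and they held 0. At the FGF4 mean of Srgn, LY+FGF4 libraries would hold 2.92 to 4.23 reads, and at the FGF4 median 1.45 to 2.11. On the longer Cubn transcript, LY libraries would hold 6.36 to 11.8 reads at the DMSO mean, and 4 of 7 were at 0. At the FGF4 mean of Cubn, LY+FGF4 libraries would hold 18.2 to 26.4 reads, and 4 of 6 were at 0. Lrp2, in turn, was covered by 19.0 to 49.1 reads in the 5 LY+FGF4 libraries that had it and by at most 10.9 in DMSO. DMSO replicates 3 and 9 were the 2 most deeply read libraries. Expected numbers at a group mean leave out the spread between libraries, and the cause of these differences was not tested.

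**Figure D4:**
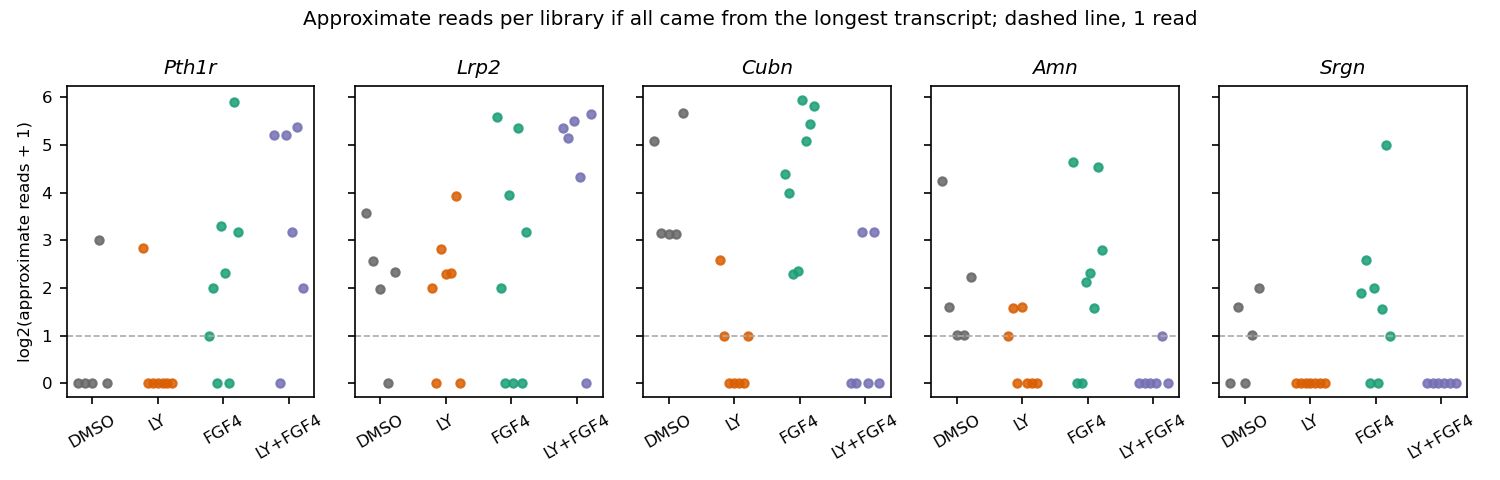
Approximate reads per library, as log2(reads + 1) on the vertical axis, for 5 genes by condition, if all reads came from the longest annotated transcript; the dashed line marks 1 read. Outside DMSO replicate 3 for Amn, the DMSO libraries that list Amn or Srgn have 1.01 to 3.71 reads of it, while Lrp2 in LY+FGF4 rests on 19.0 or more in the 5 libraries that list it.

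Genes around the receptors were looked at by lists written with earlier results of these data known. Whether calls of single list genes held under other settings is not given. LY+FGF4 had the lowest median count of listed genes, 8650.5. With that count as covariate, genes called in LY+FGF4 against LY went from 758 to 108. Whether list genes at 0 in LY+FGF4 had less RNA or were missed in libraries that list fewer genes was not tested. Of 37 genes of clathrin-coated uptake and early endosomes, all tested, 0 passed with LY or with FGF4 against DMSO by limma (4 and 9 at an unadjusted p under 0.05). In LY+FGF4 against FGF4, 1 rose and 2 fell, where 0.723% of all genes rose and 2.83% fell. The median was -0.13 beside -0.24 over all genes. Dnm2, the dynamin that pinches vesicles off, rose by 1.06 (SE 0.27, adjusted p = 0.0284), from 90.7 ± 34.2 to 191 ± 83.0 TPM, and stood at 66.2 ± 11.3 in DMSO and 154 ± 37.5 in LY. Clcn5, the endosomal chloride-proton exchanger needed for megalin and cubilin to recycle, fell by 2.64 on the log2 scale (SE 0.61, adjusted p = 0.0152), from 21.2 ± 18.3 TPM in FGF4 to 2.42 ± 2.98. It averaged 7.32 ± 2.44 TPM in DMSO and 0.56 ± 0.88 in LY, with 4 of 7 LY libraries at 0, which did not pass (adjusted p = 0.0932). Appl1, an early endosome adaptor, fell too (-2.41, adjusted p = 0.0170), from 151 ± 66.1 to 50.6 ± 63.9 TPM.

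In LY+FGF4 against LY, 2 of the 37 genes fell, the clathrin light chain Clta (-0.91, adjusted p = 0.00202) and the coat component Eps15 (-2.79, adjusted p = 0.00776). That is near the 4.5% of all genes that fell in this comparison. Against DMSO, Dnm2 rose (1.43, adjusted p = 0.00416), Clta fell (-0.70, adjusted p = 0.0183), and Dnajc6, which helps uncoat vesicles, was at 0 in all 6 LY+FGF4 libraries (adjusted p = 0.0288). There 2.19% of all genes rose and 7.3% fell.

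Lrpap1, the chaperone that keeps megalin from binding ligands too early, was abundant throughout, at 547 ± 108 TPM with DMSO, 828 ± 168 with LY, 489 ± 76.7 with FGF4 and 601 ± 91.9 with both, and did not pass. Lrp2 thus stood at a small share of the level of its chaperone in every group.

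Among 14 genes for cargo and vitamin uptake 8 were tested. In LY+FGF4 against FGF4, 0.723% of all genes rose and 2.83% fell. Against DMSO 2.19% rose and 7.30% fell, and against LY 4.50% fell. Apoe, a lipoprotein component, rose in LY+FGF4 (1213 ± 417 TPM) against FGF4 (585 ± 200; 1.03, adjusted p = 0.0438) and DMSO (503 ± 133; 1.21, adjusted p = 0.0201). Apom, another apolipoprotein, was like Srgn at 0 in all LY and all LY+FGF4 libraries and averaged 9.28 ± 10.0 TPM in FGF4 (adjusted p = 0.0413 for LY+FGF4 against FGF4). Like Srgn it met the expression filter only through FGF4 and DMSO libraries (5 and 3 at a TPM of at least 1). Cd320, the receptor for vitamin B12 bound to transcobalamin, fell in LY+FGF4 (63.4 ± 53.2 TPM) against LY (197 ± 30.04; -2.70, adjusted p = 0.0237) and DMSO (175 ± 44.0; -2.51, adjusted p = 0.0412). Folr1, a folate receptor, fell against DMSO (-2.15, adjusted p = 0.00542), from 577 ± 207 to 140 ± 69.6 TPM.

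Of 22 genes of PDGF signalling 17 were tested and 1 passed. Pik3cb, a catalytic subunit of PI3K, was at 0 in all 6 LY+FGF4 libraries against 2.47 ± 2.30 TPM in LY (adjusted p = 0.0459). In that comparison 4.5% of all genes fell, and LY+FGF4 had the lowest median count of listed genes. Pdgfa, the ligand of PDGFRA, averaged 32.1 ± 27.8 TPM with DMSO, 37.8 ± 10.1 with LY, 15.9 ± 15.7 with FGF4 and 17.1 ± 15.2 with both, and no difference passed. Pdgfrb, the other receptor, was at 0 in 25 of 26 libraries. Around Pth1r, 15 of 21 genes were tested, and 2 fell. Arrb2, a beta-arrestin, fell in LY+FGF4 against FGF4 (-2.45, adjusted p = 0.0425), where 2.83% of all genes fell. Adcy3, an adenylyl cyclase, was at 0 in all LY+FGF4 libraries against 4.32 ± 3.43 TPM in DMSO (adjusted p = 0.00783), where 7.3% of all genes fell. Pthlh, a ligand of Pth1r, was at 0 in all 26 libraries.

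Srgn carries glycosaminoglycan chains, and of 25 genes that build them 20 were tested. Ugdh, which makes the sugar precursor UDP-glucuronate, rose with FGF4 (472 ± 324 TPM) against DMSO (120 ± 49.4; 1.82, adjusted p = 0.00511), and in LY+FGF4 (381 ± 176 TPM) against DMSO (1.65, adjusted p = 0.00677) and LY (131 ± 35.0; 1.48, adjusted p = 0.0107). Ext1, which extends heparan sulfate, rose in LY+FGF4 against LY (2.26, adjusted p = 0.0412), at 7.40 ± 8.69 against 0.18 ± 0.35 TPM. No gene of the list fell in any of the 5 comparisons. Of all genes tested, 0.981% rose with FGF4 against DMSO, and 2.19% and 1.79% rose in LY+FGF4 against DMSO and LY.

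Between ICMs of the same condition no pair of the 7 genes was strongly correlated. After each group's mean was taken off log2(TPM + 1), Pearson's r between members over the 26 libraries ran from -0.41 (Pdgfra with Dab2) to 0.39 (Pth1r with Srgn), over 21 pairs. Srgn was at 0 in all 7 LY and all 6 LY+FGF4 libraries, and 52 member values above 0 came to fewer than 10 reads. Few reads and ties pull r toward 0, so these r cannot show whether the genes vary together. The genes most like each member by the same measure were the best of 8642 candidates, so their r carries no test. For Pdgfra these included Hsph1, a heat shock gene (r = 0.77), and Nfxl1 (0.69), and for Amn they were Fgfr3, a receptor of FGF (0.81), Pptc7 (0.72) and Angel2 (0.71). For Cubn they were Got1l1 (0.77), Ift27 (0.74) and Rsrp1 (0.73), for Lrp2 Tent5c (0.72), Gulo (0.70) and Fat1 (0.70), and for Pth1r Hjurp (0.75), Tmem123 (0.70) and Cdca5 (0.68). For Srgn they included Habp4 (0.69) and Mkks (0.60). For Dab2 they were Hsd17b7 (0.68), Znhit2 (0.66) and Polr3g (0.65), which dropped to between 0.36 and 0.43 without the 2 libraries farthest from the median of Dab2. In the same way Nfxl1 dropped to 0.53 and Mkks to 0.55, and the others named stayed above these. Spearman's correlation was 0.49 for Nfxl1 and 0.42 for Mkks.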

How the data were processed

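The authors deposited 1 table of TPM with a row for each gene symbol. Its reads had been trimmed and de-duplicated before, per the labels, and STAR, RSEM and mm10 are named, per the submitters' processing notes. How strands were counted, with which annotation and tool versions, was not given in the sources used here. Gene positions and transcript lengths come from GENCODE M21 (GRCm38), which matched 53255 of 55254 symbols.

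The test was limma (version 3.58.1, R version 4.3.3) with log2(TPM + 1) as input, a scale that understates changes of low genes. Genes needed 5 or more libraries with a TPM of at least 1. A single fit held all 26 libraries with 1 mean per group and the trend and robust options, and tests are two-sided. The script was tested on simulated data. The genes and lists were chosen with earlier results of these data known. Named are the 7 members, list genes past the threshold, direct ligands and co-receptors, and the 3 genes most like each member among those with a mean TPM of at least 5, without predicted or Y-linked genes and Xist; some genes that this rule names, and 1 list, are not reported here. TPM holds no read number, so reads were estimated from the spacing of values, where 83.0% to 92.2% of low values per library lay within 0.15 of a whole read. Alternatives are described in the closing section.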

Additional observations from a re-analysis of the deposited data

Results flagged for a closer look

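In 5 of 26 groups of values, 1 library stood apart from the others of its condition by Dixon's gap test on log2(TPM + 1). Chance marks about 1 in 20 groups of untied values. That rate does not apply to 3 of the 5 (Pth1r in DMSO and in LY, Amn in LY+FGF4), where all other libraries are at 0 and any single value above 0 is marked. Nor does it apply to Cubn in LY, where 4 of 7 libraries are tied at 0. Pth1r was at 7.91 TPM in DMSO replicate 8 and at 8.20 TPM in LY replicate 2, with all other libraries of those conditions at 0. Cubn was at 1.31 TPM in LY replicate 2, the next highest LY library being at 0.28 TPM. Amn was at 10.97 TPM in DMSO replicate 3, one of the most deeply read libraries, and at 1.65 TPM in LY+FGF4 replicate 7, the only library of that condition above 0. LY replicate 2 was marked for both Pth1r and Cubn.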

How the results depend on the processing

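Each comparison was refitted under 13 other settings (12 for the interaction) and without each library in turn. Counts of genes past the threshold moved by over 1.5 times as follows, and the cause was not tested. LY against DMSO, 45 genes, gave 28 without trend and robust options, 496 with library weights, 161 with only the 2 groups compared, 19 with the count of listed genes and 7 with the estimated read number as covariate, and 134 without the 6 libraries under 9000 genes. FGF4 against DMSO, 294 genes, gave 187, 1074, 181, 103 and 470 under the same settings except for the 2-group fit, and 16 with the trophectoderm score as a covariate. LY+FGF4 against FGF4, 427 genes, gave 111 with weights, 73 with 2 groups, 187 with genes listed and 171 without the 6 libraries. LY+FGF4 against LY, 758 genes, gave 356, 320, 108 and, with the trophectoderm score, 459. LY+FGF4 against DMSO, 1143 genes, gave 75 with genes listed, 197 with the read number, 418 with the trophectoderm score and 614 without the 6 libraries. The interaction, 6 genes, gave 27 without them. Leaving out 1 library gave 16 to 50, 112 to 431, 282 to 589, 528 to 872, 672 to 1285 and 2 to 11 genes in the same order. Replicate numbers repeat between groups, but the deviations of same-numbered libraries were hardly correlated (31 pairs, r from -0.08 to 0.07). No large shift shared by number was seen, which cannot show that the numbers mark no shared litter or handling. With the replicate block the counts were 5, 41, 224, 545, 460 and 2.

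Of the 7 calls of members, that of Pdgfra in LY+FGF4 against LY held in every setting run. Cubn and Srgn gave no value where a TPM of at least 5 in 5 libraries was asked. With only the 2 groups compared, Cubn (adjusted p = 0.180) and Srgn (0.196) in LY+FGF4 against FGF4 lost their calls, as did Pdgfra in LY against DMSO (0.0784), Pth1r in LY+FGF4 against LY (0.0647) and DMSO (0.0941) and Lrp2 against DMSO (0.0845). Pdgfra in FGF4 against DMSO, not called in the main fit, passed there (adjusted p = 0.000333). Differences that had not passed changed sign as follows. With the count of listed genes as covariate, Amn turned to 1.14 against LY and 0.94 against DMSO in LY+FGF4, and Cubn to 0.030 against DMSO. Without the 6 libraries, LY+FGF4 against FGF4 turned to 0.49 for Pdgfra and -0.49 for Lrp2, LY+FGF4 against LY to -0.57 for Dab2, and the interaction to -0.80 for Lrp2 and -1.10 for Dab2. The other interactions of Dab2 were -0.27 with weights, -0.13 with genes listed, -0.053 with the trophectoderm score and from -0.34 to 0.73 without 1 library. Dab2 in LY+FGF4 against DMSO turned to 0.086 with a pseudocount of 5, 0.013 with median-ratio scaling, 0.15 with the read number, 0.33 with the trophectoderm score and -0.34 to 0.59 without 1 library. Dab2 turned to -0.17 with the replicate block in FGF4 against DMSO and to 0.18 without LY+FGF4 replicate 7 against FGF4, where leaving out 1 library gave -0.76 to 0.18. Pth1r in LY against DMSO turned to 0.0060 with weights and 0.46 without DMSO replicate 8, where leaving out 1 library gave -0.63 to 0.46. Shallow libraries limit Amn and Srgn most, since 1 read is worth up to 2.52 and 2.48 TPM there.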
